A study of Planococcus citri with 8 samples.

Results

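The citrus mealybug *Planococcus citri* feeds on phloem sap, and the genes described here are those annotated to 3 families of sugar-cleaving enzymes, glycoside hydrolase families 13, 1 and 31. A gene was taken as a member when its InterPro entry (a protein domain label) in the deposited annotation was the family 13 catalytic domain (IPR006047), family 1 (IPR001360) or family 31 (IPR000322). This gave 81 gene models, 53 of family 13, 16 of family 1 and 12 of family 31, among 17669 annotated genes, of which 11584 have an entry, and 40620 gene models in all. The annotation lists a single entry per gene and only genes with a level over 1 CPM (read pairs scaled to a common library size) in at least 3 libraries, so family members outside it were not analysed here. The genes carry no names beyond their entries, so each is called by its gene model number, and g11959 (family 13) and g39266 (family 1), given as examples of the families, do carry these entries.

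Glycoside hydrolases cut the bonds between sugars. Family 13 holds alpha-amylases, maltases and sucrases, and in the pea aphid a gut enzyme of this family splits the sucrose of phloem sap and builds the glucose into longer sugars, which lowers the osmotic pressure of the gut content. The same domain also occurs in glycogen debranching and branching enzymes and in the heavy chains of amino acid transporters, so an entry alone does not give the substrate. Family 31 holds other alpha-glucosidases, among them the lysosomal acid alpha-glucosidase and glucosidase II of the endoplasmic reticulum, which trims sugars from new glycoproteins. Family 1 holds beta-glucosidases and the myrosinase of cabbage-feeding aphids.

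RNA was measured in 4 pools of virgin adult females (replicates 2, 3, 5 and 6) and 4 pools of mated adult females (replicates 8, 9, 10 and 11), each of approximately 150 whole insects, or about 100 mg. Virgin females came from lemons kept apart and cleared of male cocoons, and mated females came from the main colony once ovisacs were present, so mating, egg laying and rearing cannot be told apart. The labels give no genotype, strain or age in days for either group. Levels are TMM-scaled CPM, given in the order of the replicate numbers above, and they are not scaled by gene length. A pool is a whole-insect sample, in which more cells of a tissue and more RNA per cell cannot be told apart.

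The libraries held 29667566 to 50301861 counted read pairs, so that 1 read pair was worth 0.0208 to 0.0327 CPM and 3 read pairs 0.0624 to 0.0982 CPM. Even the closest pair of pools within a group differed by more than sampling noise. Fold changes are log2 values of virgin over mated females with a standard error (SE), from edgeR's two-sided quasi-likelihood test fitted to 21179 genes, and a gene is called at a Benjamini-Hochberg adjusted p under 0.05 over all of them. All 81 members were tested, and SDs are over the 4 pools of a group.

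Most of the sugar hydrolase genes were higher in virgin females. In family 13, 37 of 53 genes were called higher and 1 lower, in family 1 12 of 16 were higher and 0 lower, and in family 31 11 of 12 were higher and 0 lower. Over all genes tested, 26.4% were called higher and 21.3% lower. The median log2 fold change was 2.23 in family 13, 2.00 in family 1 and 3.09 in family 31, beside 0.03 over all genes tested. The 4 virgin pools lay above the 4 mated pools in 24 genes of family 13, 12 of family 1 and 7 of family 31, which together are 43 of 81, beside 22.1% of all genes tested. No member (0) had all virgin pools below all mated pools, beside 4474 of the 21179 genes tested. In 63 members the log2 fold change was over 1, and in 34 it was over 3, beside 4496 and 739 of the 21179 genes tested.

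**Figure D1:**
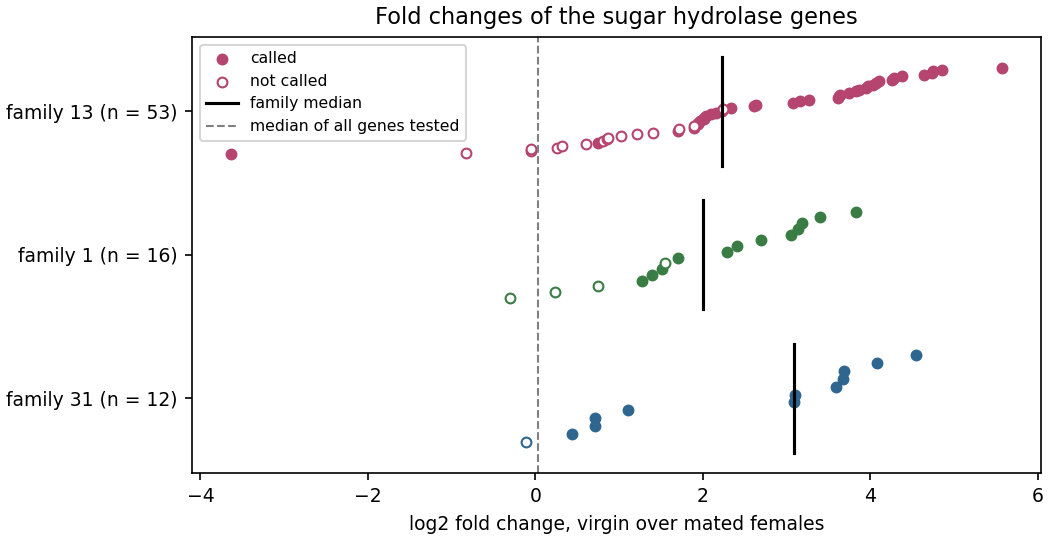
Each point is 1 gene of glycoside hydrolase family 13 (53 genes), 1 (16 genes) or 31 (12 genes), placed on the x axis by its log2 fold change of virgin over mated females, filled if called by edgeR and open if not. Black bars mark the family medians of 2.23, 2.00 and 3.09, the dashed line the median of all genes tested (0.03), and the lone filled point at the far left is g32194 of family 13 (-3.64).

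The annotation admitted a gene that passed 1 CPM in 1 group only, and 32 members did so through the virgin pools, 1 through the mated pools and 2 only over both groups together. Admission through the group where a gene is high favours genes that differ, without forcing a difference. The counts are therefore also given for the 46 members above 1 CPM in at least 3 libraries of each group. This choice was made after the data were seen. Of these 46, 19 of 27 in family 13, 6 of 8 in family 1 and 10 of 11 in family 31 were called higher and 0 lower. Among all genes that pass in both groups, 25.5% were called higher and 20.1% lower. The median log2 fold changes of these members were 2.23, 1.45 and 3.09 in families 13, 1 and 31, beside 0.01 over all such genes. Of the 46 members, 32 had a log2 fold change over 1 and 16 over 3, beside 2455 and 299 of the 15291 such genes. In family 1 none (0) of the 8 was over 3. All virgin pools lay above all mated pools in 11 of the 27 members of family 13. They did so in 6 of 8 in family 1 and in 6 of 11 in family 31, beside 3434 of the 15291 genes that pass in both groups. Leaving out mated replicate 11 reduced the genes of family 13 called higher to 24 of 53, and the share of all genes called higher to 19.5%.

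Summed over its members, family 13 had 738, 2540.0, 4870.4 and 2497 CPM in the virgin pools, against 513, 660.2, 302 and 395 CPM in the mated pools. The virgin pools all lay above the mated pools, but virgin replicate 2 was only just above mated replicate 9, and virgin replicate 5 was far above the rest. The mean was 2661 ± 1695 CPM over the virgin pools and 467 ± 155 CPM over the mated pools (SD, n = 4 each), a ratio of 5.69, which came to 7.07 with virgin replicate 2 left out and to 4.12 with virgin replicate 5 left out.

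Family 31 summed to 941, 3128, 3697 and 3085 CPM in the virgin pools, against 708, 907, 637 and 658 CPM in the mated pools. Virgin replicate 2 again stood close to mated replicate 9, and the other virgin pools lay together well above. The means of 2713 ± 1214 CPM over the virgin pools and 727 ± 123 CPM over the mated pools gave a ratio of 3.73, or 4.54 without virgin replicate 2. Family 1 summed to 212, 403, 386 and 465 CPM in the virgin pools, against 159, 168, 138 and 132 CPM in the mated pools. Its virgin pools lay above its mated pools with a smaller distance, the means being 367 ± 108 CPM over the virgin pools and 149 ± 16.9 CPM over the mated pools with a ratio of 2.45. Together the 81 genes took 0.196% to 0.861% of the counted read pairs of a virgin pool and 0.103% to 0.170% of those of a mated pool.

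**Figure D2:**
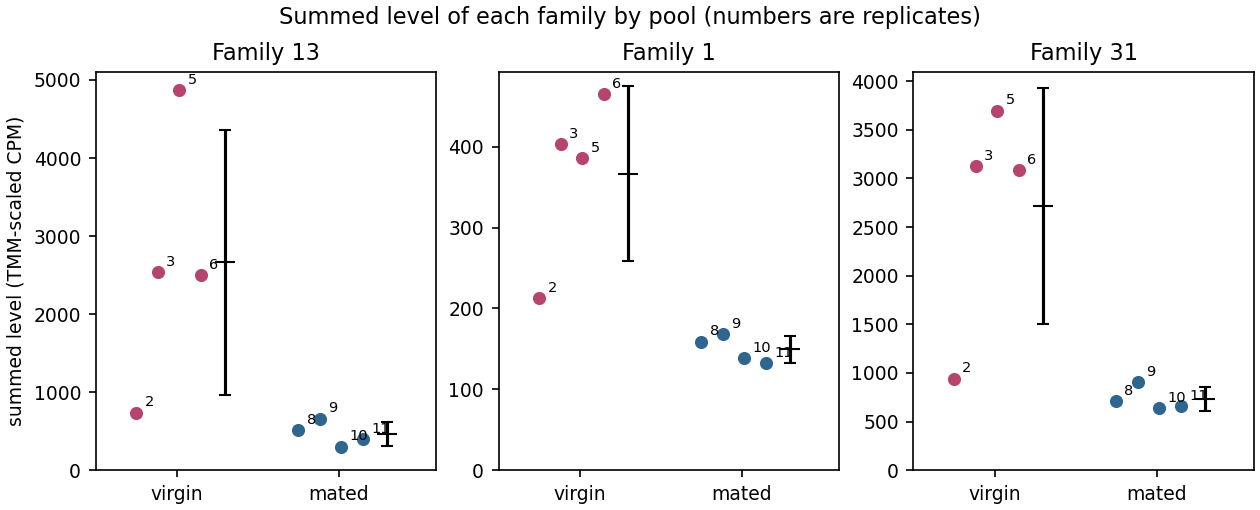
Summed level of each family in TMM-scaled CPM (y axis, from 0) in the 4 virgin and the 4 mated pools, each point 1 pool labelled with its replicate number, with the mean and SD beside the points. In each family virgin replicate 2 is the lowest virgin pool (737.8 CPM in family 13), and replicate 5 is the highest in families 13 and 31 (4870.4 CPM in family 13).

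A few genes took most of the reads of each family. In family 13, g39252 took 26.3% of the family's reads over all libraries, and the leading 5 genes took 57.8%. In family 1, g28606 took 45.7% and the leading 5 genes 82.1%. In family 31, g4956 took 27.3% and the leading 5 genes 82.6%. A sum therefore mainly follows these genes.

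The family 13 gene with the most reads, g39252, had 129, 875, 896 and 965 CPM in the virgin pools and 96.6, 203, 74.3 and 89 CPM in the mated pools. Virgin replicates 3, 5 and 6 were close together and far above all mated pools, while virgin replicate 2 fell below mated replicate 9, so the groups overlapped by this pool. The means were 716 ± 393 CPM in the virgin and 116 ± 58.7 CPM in the mated pools (SD, n = 4 each; log2 fold change 2.63, SE 0.61, edgeR adjusted p = 0.00916). The gene model numbered next to it, g39253, had 10.7, 54, 41.8 and 39.3 CPM in the virgin pools and 7.90, 36.5, 16.8 and 22.1 CPM in the mated pools, overlapped widely and was not called (log2 fold change 0.81, SE 0.55, edgeR adjusted p = 0.25).

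A run of 6 family 13 genes on scaffold PCITRI_00545 (assembly Pcitri.v1, g31701 to g31707) was called higher throughout, with log2 fold changes of 3.16 to 4.28. Gene model numbers run along the scaffolds, so these genes lie within a short stretch of gene models. The member with the most reads, g31702, had 137, 339, 548 and 237 CPM in the virgin pools and 22.9, 48.3, 3.31 and 27.6 CPM in the mated pools. No pool of one group reached into the other, and mated replicate 10 was the lowest (log2 fold change 3.63, SE 0.77, edgeR adjusted p = 0.00614). In the same run g31701 had 4.92, 6.15, 16.3 and 3.94 CPM in the virgin pools and 0.764, 0.487, 0.187 and 0.174 CPM in the mated pools, again without overlap (log2 fold change 4.28, SE 0.67, edgeR adjusted p = 0.00221), and its log2 fold change was 3.62 without virgin replicate 5. Without that pool g31707 had 3.27 in place of 4.06. Also in the run, g31705 had 16.9, 39.9, 31.1 and 14.6 CPM in the virgin pools and 4.16, 3.56, 0.687 and 3.04 CPM in the mated pools, with virgin replicates 3 and 5 above the other virgin pools (log2 fold change 3.16, SE 0.57, edgeR adjusted p = 0.00347).

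The longest run, 7 family 13 genes on PCITRI_00869 (g36050 to g36065), had 6 genes called higher, with log2 fold changes of 2.33 to 4.10. All 7 were highest among the virgin pools in replicate 5, which had 1.97 to 7.26 times the median of the other virgin pools. Without that pool g36062 had a log2 fold change of 1.12 in place of 2.33, and g36050 had 2.68 in place of 4.10. The call of g36062 was lost in 6 of 16 alternatives (adjusted p range 0.0023 to 0.0835 over all alternatives). It was lost without virgin replicate 5 (edgeR adjusted p = 0.054), with each mated pool left out in turn, and by limma voom. Also in this run, g36057 had 18.2, 5.04, 24.5 and 11.4 CPM in the virgin pools and 0.708, 2.29, 0.312 and 0.724 CPM in the mated pools. The groups did not overlap, and mated replicate 9 was the highest mated pool (log2 fold change 3.87, SE 0.71, edgeR adjusted p = 0.0037, and a log2 fold change of 4.66 without that pool). Within the run, g36059 differed from its neighbours in its values, with 4.69, 5.17, 15.9 and 11.3 CPM in the virgin pools and 0.708, 23.2, 3.64 and 11.1 CPM in the mated pools. Its highest pool was a mated one, replicate 9, and its groups overlapped (log2 fold change -0.06, SE 0.87, edgeR adjusted p = 0.963). Without mated replicate 9 its log2 fold change was 0.84, and its sign was positive in 6 of 16 alternatives, in none (0) of which it was called.

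On PCITRI_00134 lie 5 family 13 genes (g23512 to g23518), of which 3 were called higher. Of these g23515, singled out after its values were seen, had 20.7, 24.3, 509 and 27.8 CPM in the virgin pools and 7.90, 14.1, 2.39 and 6.05 CPM in the mated pools. Virgin replicate 5 held 21.0 times the median of the other virgin pools, which in turn lay above every mated pool. Its log2 fold change was 4.26 (SE 1.26, edgeR adjusted p = 0.0236), and 1.66 without virgin replicate 5, where it was still called (edgeR adjusted p = 0.0353). The call was lost in 4 of the 15 alternatives that gave an adjusted p (range 0.011 to 0.0837). These were limma voom and the fits without mated replicate 8, 10 or 11. The neighbours g23517 and g23518 had log2 fold changes of 4.86 and 4.65, which were 3.57 for g23517 without virgin replicate 5 and 5.56 for g23518 without mated replicate 8. Limma voom did not call g23517 (adjusted p = 0.054, range 1.14e-07 to 0.054 over all alternatives). Another member, g23512, had 0.337, 7.17, 10.2 and 0.417 CPM in the virgin pools and 5.35, 0.195, 0 and 0 CPM in the mated pools. Here virgin replicates 2 and 6 were low and mated replicate 8 was high, and the gene was not called (log2 fold change 1.72, SE 1.73, edgeR adjusted p = 0.432). Without mated replicate 8 its log2 fold change was 6.04 and it was called higher (edgeR adjusted p = 0.0328), as it was by voom with sample quality weights (range 0.0328 to 0.714 over all alternatives). With virgin replicate 5 left out the log2 fold change was 0.92. On PCITRI_00072 lie 4 family 13 genes, g21521, g21523, g21524 and g21525, with log2 fold changes of 2.61, 0.75, 0.32 and 1.89. All but g21524 were called higher, and these calls were lost in 6, 9 and 4 of 16 alternatives, in that order. Without virgin replicate 5 g21521 had 1.54. Without mated replicate 8 it had 3.23, and g21525 had 2.53.

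**Figure D3:**
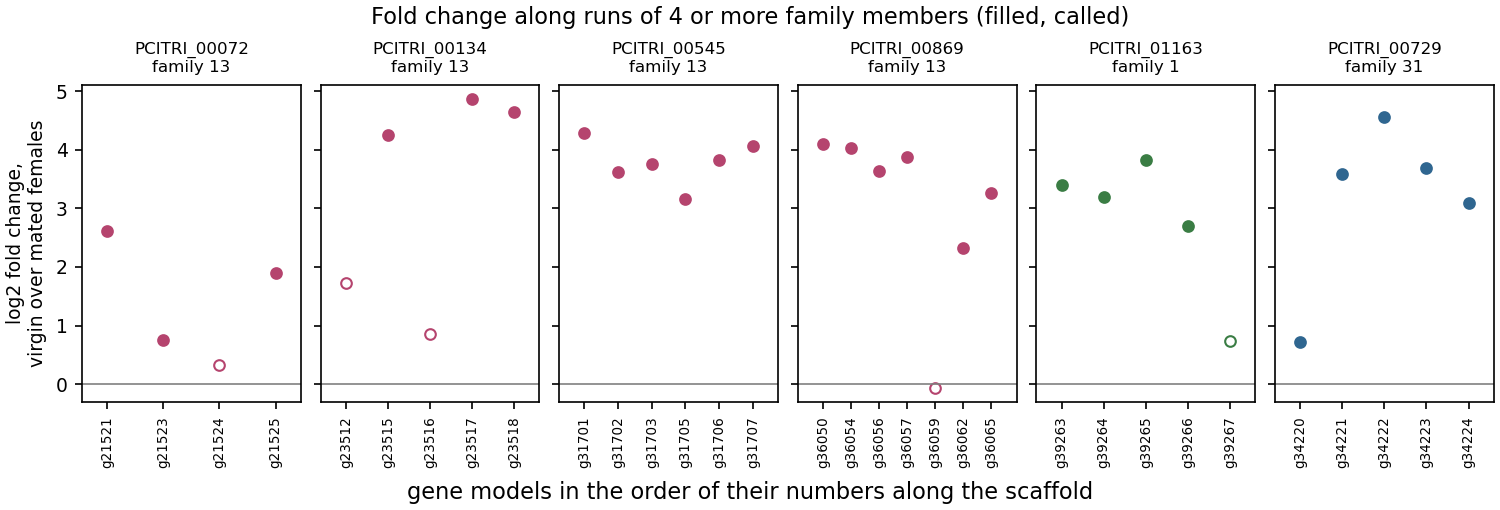
Log2 fold change of virgin over mated females (y axis) of the members on the 6 scaffolds that hold 4 or more of them, in the order of their gene model numbers (x axis), filled if called by edgeR and open if not. The 6 genes of PCITRI_00545 lie between 3.16 and 4.28, while g36059 of PCITRI_00869 lies at -0.06 among neighbours of 2.33 to 4.10, and would lie at 0.84 without mated replicate 9.

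The largest fold change of family 13 was that of g11959, which had 11.3, 1.64, 68.2 and 7.15 CPM in the virgin pools and 1.53, 0.244, 0 and 0.116 CPM in the mated pools. Virgin replicate 5 was far above the other virgin pools and mated replicate 8 far above the other mated pools, although its level was still just below the lowest virgin pool. The test gave a log2 fold change of 5.57 (SE 1.54, edgeR adjusted p = 0.018), which came to 3.83 with virgin replicate 5 left out and to 7.52 with mated replicate 8 left out. Without mated replicate 11 the gene was no longer called (edgeR adjusted p = 0.0539, with a range of 0.00119 to 0.0539 over all alternatives). On the same scaffold g11961 had 1.85, 0.916, 10.9 and 1.96 CPM in the virgin pools and 0.934, 0.268, 0 and 0.0869 CPM in the mated pools, with the same 2 pools highest in their groups.

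Another pair of family 13 genes with many reads had wide spreads among the virgin pools. The first, g39560, had 18.9, 66.6, 518 and 197 CPM in the virgin pools and 22.6, 18.9, 1.75 and 7.65 CPM in the mated pools. Virgin replicate 2 lay within the range of the mated pools and replicate 5 far above all others (log2 fold change 3.98, SE 1.12, edgeR adjusted p = 0.0199). Its log2 fold change was 2.88 without virgin replicate 5, and the call was lost without mated replicate 11 (adjusted p = 0.0595, range 7.14e-05 to 0.0595 over the alternatives). The second, g20716, had 6.46, 197, 485 and 132 CPM in the virgin pools and 2.32, 19.3, 2.02 and 7.07 CPM in the mated pools. Virgin replicate 2 again fell among the mated pools (log2 fold change 4.74, SE 1.26, edgeR adjusted p = 0.0158), with log2 fold changes of 3.86 without virgin replicate 5 and 5.74 without mated replicate 9. It was not called by limma voom (adjusted p = 0.076, range 0.00016 to 0.076).

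The gene g31549 had 15, 248, 235 and 167 CPM in the virgin pools and 55.3, 13.1, 7.87 and 2.58 CPM in the mated pools. Virgin replicate 2 lay below mated replicate 8, which was the highest mated pool (log2 fold change 3.08, SE 1.07, edgeR adjusted p = 0.0428). This call was lost in 7 of 16 alternatives (adjusted p range 0.000753 to 0.106), and the log2 fold change was 4.39 without mated replicate 8.

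Other family 13 genes had smaller spreads and no overlap. The smallest p of the family was that of g11146, the only gene model on its scaffold, with 13.7, 24, 16 and 23.5 CPM in the virgin pools and 6.51, 5.02, 3.77 and 3.85 CPM in the mated pools. Every virgin pool had at least 13.7 CPM and every mated pool at most 6.51 CPM (log2 fold change 2.01, SE 0.27, edgeR adjusted p = 0.00152). A pair on separate scaffolds, g5245 and g14795, kept nearly the same ratio to each other in all libraries, 0.987 to 1.28. Of these g5245 had 7.95, 25.9, 30.3 and 26.6 CPM in the virgin pools and 4.19, 5.41, 5.29 and 4.43 CPM in the mated pools (log2 fold change 2.23, SE 0.38, edgeR adjusted p = 0.00292), and g14795 had 6.24, 20.8, 29.1 and 23.6 CPM in the virgin pools and 4.22, 5.02, 4.12 and 4.49 CPM in the mated pools (log2 fold change 2.16, SE 0.41, edgeR adjusted p = 0.00422). In both, the mated pools lay close together and virgin replicate 2 was the lowest virgin pool. Whether reads are shared between genes with such parallel levels is not known, since counts were of uniquely mapped pairs and the sequences were not compared.

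The 1 member called lower was g32194 on PCITRI_00577, with 0.140, 0.262, 0.722 and 0.548 CPM in the virgin pools and 0.368, 9.97, 3.21 and 7.59 CPM in the mated pools. Mated replicates 9, 10 and 11 lay above all virgin pools, and mated replicate 8 lay among the virgin pools, so the groups overlapped (log2 fold change -3.64, SE 0.93, edgeR adjusted p = 0.0136). It was not called by limma voom (adjusted p = 0.0883) or by voom with sample quality weights (adjusted p = 0.0706, range 6.57e-05 to 0.0883 over all alternatives). Its neighbours were not called. They were g32193, with a log2 fold change of 2.23 (SE 1.03), and g32195, with -0.83 (SE 0.80), of which g32195 was also highest in mated replicate 9. Without mated replicate 9 the log2 fold change of g32195 was 0.015. That of g32193 was 2.87 without mated replicate 11, and g32193 was called higher without virgin replicate 2 (edgeR adjusted p = 0.0199), by DESeq2 and by voom with sample quality weights (range 0.0156 to 0.231 over all alternatives).

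A further family 13 gene, g27231, was among those with the most reads and had 83.3, 96.7, 139 and 99.6 CPM in the virgin pools and 112, 101, 113 and 107 CPM in the mated pools. The mated pools lay within the range of the virgin pools (log2 fold change -0.05, SE 0.15, edgeR adjusted p = 0.798). Without virgin replicate 2 its log2 fold change was 0.032. Of the 15 members of family 13 that were not called, the log2 fold changes ran from -0.83 to 2.23.

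In family 1, g28606 drew the most reads and had 93, 194, 185 and 196 CPM in the virgin pools and 79.9, 75.4, 62.3 and 59.6 CPM in the mated pools. Virgin replicates 3, 5 and 6 lay together and replicate 2 stood below them, yet above every mated pool (log2 fold change 1.27, SE 0.24, edgeR adjusted p = 0.00398). Its neighbour in number, g28605, had 8.26, 4.25, 2.81 and 5.74 CPM in the virgin pools and 4.81, 7.43, 7.20 and 6.55 CPM in the mated pools, the smallest fold change of the family (log2 fold change -0.30, SE 0.33, edgeR adjusted p = 0.463). The groups overlapped there, and virgin replicate 2 was the highest pool.

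A run of 5 family 1 genes on PCITRI_01163 (g39263 to g39267) had 4 genes called higher, with log2 fold changes of 2.70 to 3.83. The member with the most reads, g39266, had 14.6, 34.4, 26.1 and 43.5 CPM in the virgin pools and 5.01, 5.85, 3.08 and 4.32 CPM in the mated pools. The lowest virgin pool was above the highest mated pool, and virgin replicate 6 was the highest (log2 fold change 2.70, SE 0.36, edgeR adjusted p = 0.00151). In g39265, the largest fold change of the family, there were 3.74, 17, 25.8 and 17.9 CPM in the virgin pools and 1.70, 1.63, 0.437 and 0.753 CPM in the mated pools (log2 fold change 3.83, SE 0.67, edgeR adjusted p = 0.00306). The levels of g39264 were 3.09, 8.05, 6.91 and 10.3 CPM in the virgin pools and 0.878, 1.07, 0.458 and 0.695 CPM in the mated pools (log2 fold change 3.19, SE 0.43, edgeR adjusted p = 0.00156). In both the groups were apart, with virgin replicate 2 lowest among the virgin pools. The last of the run, g39267, was not called (log2 fold change 0.74, SE 0.41, edgeR adjusted p = 0.167), but was called higher without mated replicate 9 (adjusted p = 0.038, range 0.038 to 0.43 over all alternatives).

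Of the family 1 genes on other scaffolds, g13356 had 3.26, 8.48, 12.1 and 9.42 CPM in the virgin pools and 0.963, 1.29, 0.833 and 0.898 CPM in the mated pools. Its mated pools were all close to 1 CPM and its virgin pools all above 3 CPM (log2 fold change 3.06, SE 0.40, edgeR adjusted p = 0.00151). The gene g7785 had 14.9, 26.9, 33.1 and 33.8 CPM in the virgin pools and 9.43, 11, 9.05 and 8.66 CPM in the mated pools, also without overlap (log2 fold change 1.51, SE 0.25, edgeR adjusted p = 0.0027). By contrast g11092, the family's second gene by reads, had 37.7, 50.4, 36.4 and 71.8 CPM in the virgin pools and 41.8, 44.6, 45.1 and 36 CPM in the mated pools. There the groups overlapped, virgin replicate 6 being the highest pool and mated replicate 11 the lowest (log2 fold change 0.23, SE 0.22, edgeR adjusted p = 0.409), and without virgin replicate 6 the log2 fold change was -0.0061. In all 12 genes of family 1 called higher the groups did not overlap, but the call and the overlap rest on the same values. Of the 8 family 1 genes that pass 1 CPM in both groups, 6 had all virgin pools above all mated pools. Among all genes that pass in both groups, 3434 of 15291 did.

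In family 31 the fold changes fell into separate ranges. In 7 genes the log2 fold change was 3.09 to 4.55, in the other 5 it was -0.11 to 1.11, and none (0) lay between. The 7 genes were g34221, g34222, g34223 and g34224 on PCITRI_00729, g4956 and g4957 on PCITRI_01665, and g17805, the only gene model on its scaffold. Neighbours in number of these genes lay in the lower range. They were g34220 (log2 fold change 0.72, SE 0.16) and g4955 (log2 fold change 0.44, SE 0.15), both called higher. The call of g4955 was lost in 8 of 16 alternatives, among them no expression filter, upper-quartile factors and 6 of the 8 fits that leave out 1 library (edgeR adjusted p = 0.0378, range 0.00838 to 0.106). The upper and lower ranges of fold change were seen in the values and were not tested against each other.

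The family 31 gene with the most reads was g4956, with 161, 1079.8, 1306 and 989 CPM in the virgin pools and 70.2, 117, 36.4 and 53.3 CPM in the mated pools. Every virgin pool lay above every mated pool, with virgin replicate 2 closer to mated replicate 9 than to the other virgin pools (log2 fold change 3.67, SE 0.65, edgeR adjusted p = 0.00328). Next in the upper range was g34223, with 158, 807, 921 and 767 CPM in the virgin pools and 28.4, 109.5, 25.2 and 42.2 CPM in the mated pools. The virgin pools stood in the same order, and the lowest, replicate 2, lay above mated replicate 9 (log2 fold change 3.69, SE 0.68, edgeR adjusted p = 0.00379), and without mated replicate 9 the log2 fold change was 4.36.

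The largest fold change of family 31 was that of g34222, which had 9.97, 67.1, 82 and 61.7 CPM in the virgin pools and 1.42, 4.58, 2.02 and 1.36 CPM in the mated pools (log2 fold change 4.55, SE 0.71, edgeR adjusted p = 0.00221). In g34221, there were 12, 76.2, 87.7 and 71.4 CPM in the virgin pools and 5.86, 8.14, 2.91 and 3.59 CPM in the mated pools (log2 fold change 3.59, SE 0.62, edgeR adjusted p = 0.00306). At a lower level, g4957 had 0.983, 6.97, 11.6 and 5.56 CPM in the virgin pools and 0.283, 0.561, 0.312 and 0.319 CPM in the mated pools (log2 fold change 4.08, SE 0.70, edgeR adjusted p = 0.00294). In these 3 genes the groups did not overlap and virgin replicate 2 was the lowest virgin pool, at 0.141 to 0.157 times the median of the other virgin pools. Over the 7 genes of the upper range this ratio was 0.138 to 0.196, and over the other 5 genes it was 0.486 to 1.15.

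The genes g34224 and g17805 lie on different scaffolds and kept an almost constant ratio of 1.79 to 1.97 in all 8 libraries, the narrowest of 630 pairs of members with at least 1 CPM throughout, a pair chosen after the values were seen. Of these g34224 had 49.6, 302, 349.5 and 349 CPM in the virgin pools and 7.93, 59.9, 29.4 and 26.3 CPM in the mated pools (log2 fold change 3.09, SE 0.74, edgeR adjusted p = 0.0102). The gene g17805 had 25.3, 166, 183 and 186 CPM in the virgin pools and 4.42, 30.4, 15.9 and 14.5 CPM in the mated pools (log2 fold change 3.10, SE 0.73, edgeR adjusted p = 0.00946). In both, mated replicate 8 was far below the other mated pools, and mated replicate 9 was above virgin replicate 2. Whether they are copies or parts of 1 gene was not tested. The next narrowest ratio, 0.28 to 0.316, joined g27231 and g22341, which belong to different families and were both not called.

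The 1 gene of family 31 that was not called, g22341, had 263, 325, 444 and 337 CPM in the virgin pools and 393, 362, 373 and 347 CPM in the mated pools. It was second in the family by reads, and the mated pools lay within the range of the virgin pools (log2 fold change -0.11, SE 0.16, edgeR adjusted p = 0.596). The other genes of the lower range, g22008 and g29717, were called higher with log2 fold changes of 0.72 (SE 0.16) and 1.11 (SE 0.25).

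**Figure D4:**
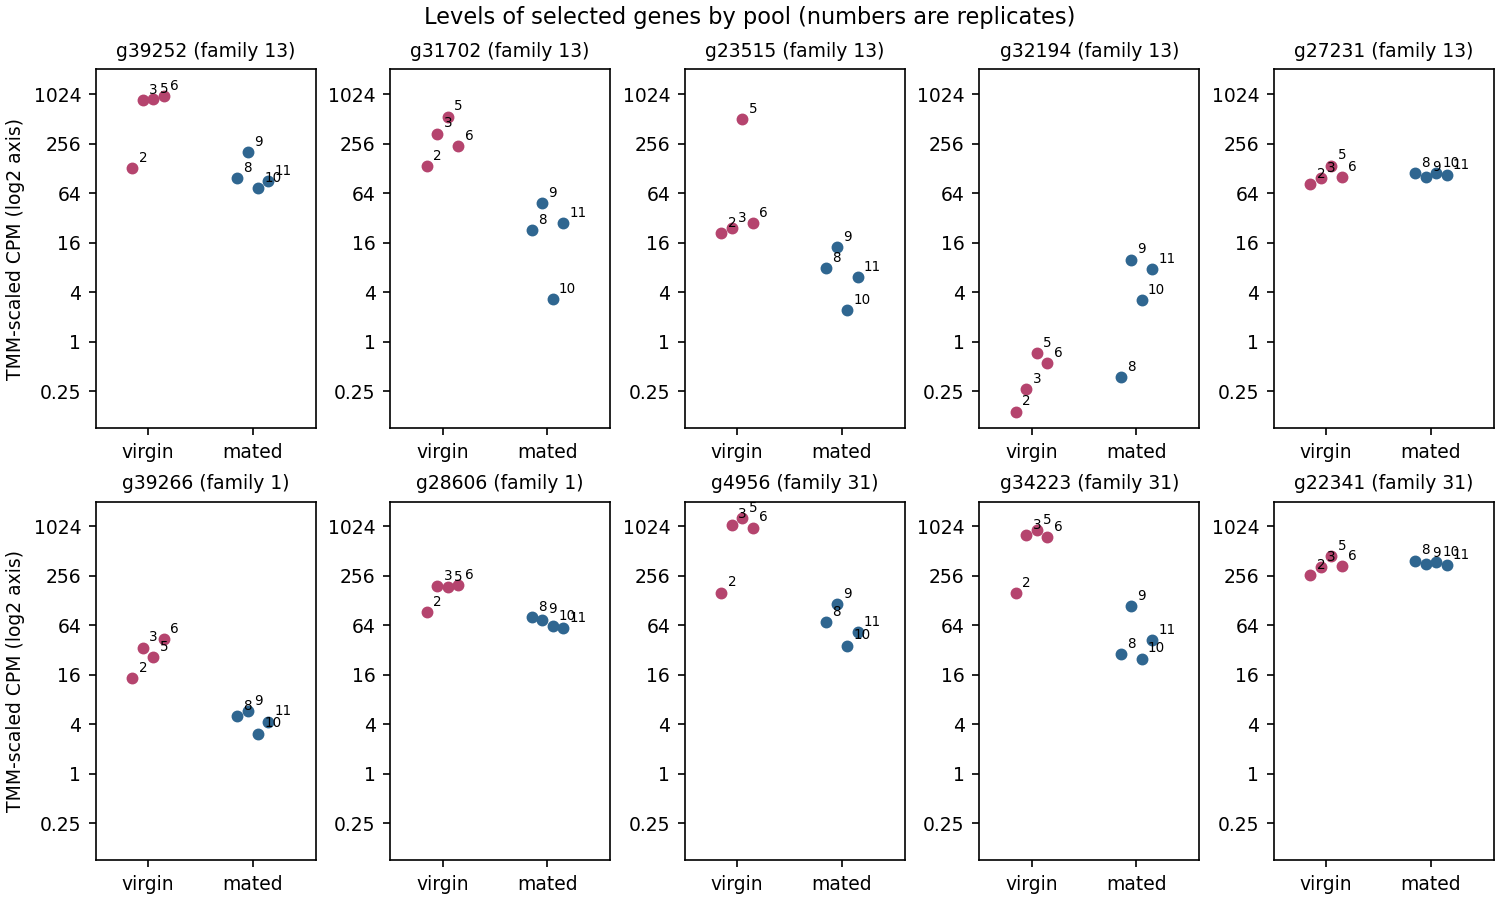
Level in TMM-scaled CPM (y axis, log2 scale, the same in all panels) of 5 genes of family 13, 2 of family 1 and 3 of family 31 in the 4 virgin and 4 mated pools, each point 1 pool labelled with its replicate number. Virgin replicate 2 lies near the mated pools in g39252 (129 CPM) and g4956 (161 CPM), replicate 5 stands alone in g23515 (509 CPM), and g27231 and g22341 have overlapping groups.

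The virgin pools were not alike. Virgin replicate 2 was the lowest virgin pool in 66 of 81 members, beside 39.5% of all genes tested, and in the median gene its level was 0.374, 0.438 and 0.176 times the median of the other virgin pools in families 13, 1 and 31, beside 0.999 over all genes tested. Virgin replicate 5 was the highest virgin pool in 34 of 53 genes of family 13 and 8 of 12 of family 31, beside 27.4% of all genes tested. In family 1 it was the highest in 4 of 16 genes. There replicate 6 was the highest in 11 of 16, beside 19.2% of all genes tested. The median coefficient of variation over the virgin pools was 58.0% in family 13, 41.5% in family 1 and 53.2% in family 31, beside 27.4% over all genes tested. These are descriptions of single pools and were not tested.

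Among the mated pools, replicate 10 was the lowest in 54 of 81 members (25.5% of all genes tested) and replicate 9 the highest in 45 (27.0% of all genes tested). The median coefficient of variation over the mated pools was 74.3% in family 13, 29.7% in family 1 and 40.6% in family 31, beside 16.3% over all genes tested. In family 13, replicate 9 was the highest mated pool in 26 of 53 genes and replicate 8 in 24, beside 27.0% and 26.5% of all genes tested. Among those highest in replicate 8, g7480 had 0.927, 9.75, 14.4 and 7.33 CPM in the virgin pools and 8.15, 0.292, 0.312 and 0 CPM in the mated pools. It was not called (log2 fold change 1.90, SE 1.43, edgeR adjusted p = 0.297). Without mated replicate 8 its log2 fold change was 5.25 and it was called higher (edgeR adjusted p = 0.0131), as it was by voom with sample quality weights (range 0.0047 to 0.478 over all alternatives). The example was chosen after its values were seen.

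**Figure D5:**
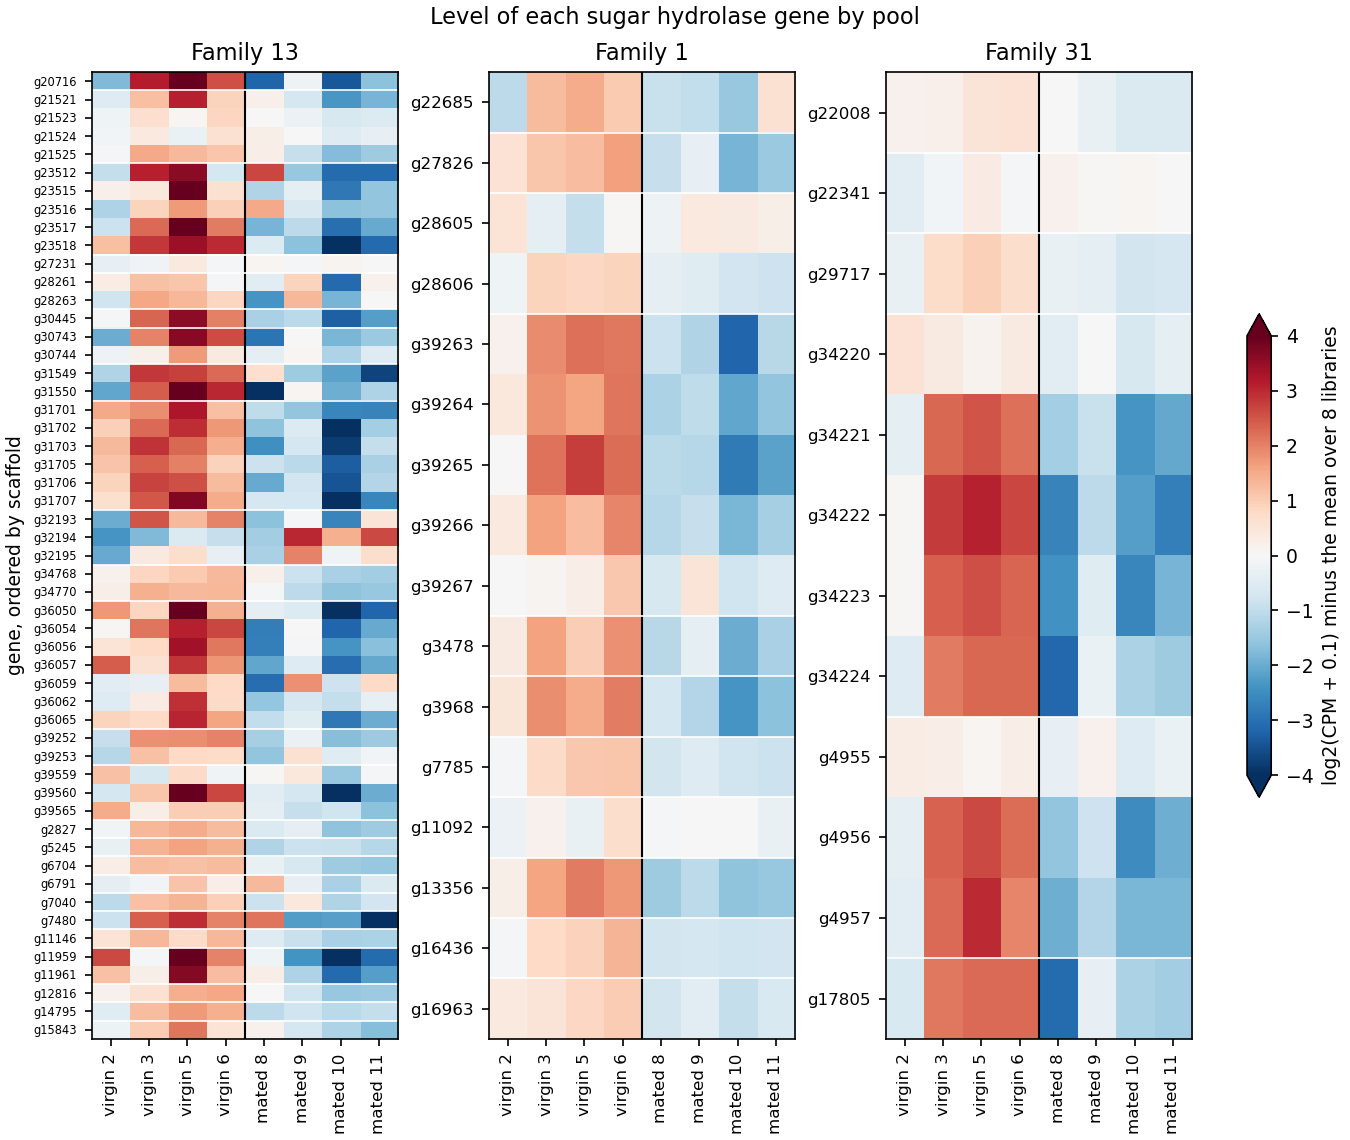
Each row is 1 of the 81 genes in scaffold order and each column 1 pool, virgin left of mated, and colour gives log2(CPM + 0.1) minus the gene's mean over the 8 libraries, with white lines between scaffolds and the scale ending at 4 either way. Most rows are red in virgin replicates 3, 5 and 6 and blue in the mated pools, virgin replicate 2 is paler, and g32194 is red in mated replicates 9, 10 and 11.

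Insect cuticle proteins, which form the exoskeleton and are made in the epidermis, followed a like order of the virgin pools. Their sum over 43 tested genes was 562, 2693, 10427 and 5659.9 CPM in the virgin pools, against 1127, 1341, 1399.9 and 789 CPM in the mated pools. Virgin replicate 2 was lowest and replicate 5 highest. By gene, 32.6% were highest of the virgin pools in replicate 5, beside 27.4% of all genes tested. The mated sum was highest in replicate 10, which was the lowest mated pool in 54 of 81 sugar hydrolase genes. Of the cuticle genes 24 were called higher and 6 lower, beside 26.4% and 21.3% of all genes tested. Leaving out mated replicate 11 reduced the 24 to 11, and limma voom called 9, beside 19.5% and 24.7% of all genes called higher. The sums of sugar transporter-like genes (3339, 5996, 6674 and 6086 CPM) and of glycolysis genes (7050, 8815, 12107.5 and 10450 CPM) had the same lowest and highest virgin pools. In genes of other glycoside hydrolase domains, replicate 5 had the lowest virgin sum (4380 CPM). The part of any of these genes in the results for the sugar hydrolases was not tested.

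Of 66 genes annotated to other glycoside hydrolase domains, 18 (27.3%) were called higher and 16 (24.2%) lower, near the 26.4% and 21.3% of all genes tested. Their median log2 fold change was -0.05. They include chitinase-like family 18 and trehalases of family 37, and 2 genes whose single entry is an N-terminal domain of family 13 or 31. These are g26641 (family 13 N-terminal), with a log2 fold change of -0.21 (SE 0.16), and g26018 (family 31 N-terminal), with -0.18 (SE 0.14), and neither was called. Sugar transporter-like genes of the major facilitator type had 81 of 141 genes called higher and 7 lower, with a median of 1.30. Their entry alone does not give what each of them carries. Among them g4018 had a log2 fold change of 3.01 (SE 0.37) and g522 of -1.75 (SE 0.19).

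In trehalose and glycogen metabolism, which handles the blood sugar and the stored glucose of insects, 8 of 19 genes were called higher and 1 lower, with a median of 0.31. Without mated replicate 10, and likewise without mated replicate 11, 4 were higher, beside 19.5% of all genes in either fit. The trehalases g33306 and g33307, which split trehalose into glucose, had log2 fold changes of 1.20 (SE 0.21) and -0.68 (SE 0.15). The list shares its trehalases with the other glycoside hydrolases. In glycolysis, which breaks glucose down, 15 of 19 genes were higher and 0 lower, with a median of 1.03, although the list includes histidine phosphatase domain genes that are not all of this pathway. These lists were chosen with earlier results known. The calls are from the same edgeR fit, in which 26.4% of all genes tested were called higher and 21.3% lower.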

How the data were processed

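Polyadenylated RNA of 8 pools of whole females was sequenced as strand-specific read pairs. The deposited counts are whole numbers of uniquely mapped pairs per gene model, counted by the authors in CLC Genomics Workbench 10.0.1 against the Pcitri.v1 assembly. No source used here says if counting was by strand, and values of overlapping, antisense and near-identical genes are uncertain. The deposited log2 CPM values differed from those computed here (prior count 2) by a median of 0.183 to 0.261 over the members in each library. The InterPro entries that chose the members stand in another deposited table, whose log2 fold changes and adjusted p-values by the authors were not used. The submitters' processing notes also name R 3.4.2, edgeR 3.20.9 and limma 3.34.9.

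Counts were tested in R 4.3.3 with edgeR 4.0.16 (filterByExpr, TMM, glmQLFit and glmQLFTest on the condition alone) over 21179 genes, at an adjusted p under 0.05. The SE is the log2 fold change divided by the square root of F. The script was tested on simulated data. Outcomes were recomputed under 16 alternatives (DESeq2 1.42.0, limma 3.58.1 with voom, other scalings and filters, and each library left out).

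Members and lists were chosen with earlier results of these data known. The genes named are those with the most reads (6 of family 13, 3 of each other family) and the smallest p among those called higher (the same numbers), every member called lower, the largest and smallest fold change of each family, g11959 and g39266, members of runs of 3 or more on a scaffold, and up to 2 called genes each way of each companion list. The genes g39253, g11961, g7480, g17805, g22008, g29717, g26018 and g26641, and the pool values of g23512, g23515 and g36059, were added after their values were seen.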

Additional observations from a re-analysis of the deposited data

Results flagged for a closer look

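Within a group of 4 pools, a pool was singled out when its gap to the nearest other pool, divided by the range of the group, was above Dixon's critical value. This was so in 5 of 62 groups of values looked at. Chance gives about 1 in 20 for independent groups of normally distributed values. The groups here share the same 8 pools, so the count cannot be set against that rate. In g39252 of family 13, virgin replicate 2 was the lowest virgin pool with 129 CPM, beside 875 to 965 CPM in the others. In g28606 of family 1, virgin replicate 2 was also the lowest, with 93.0 CPM beside 185 to 196 CPM. In g11959 of family 13, virgin replicate 5 was the highest virgin pool with 68.2 CPM, beside 1.64 to 11.3 CPM. In the same gene mated replicate 8 was the highest mated pool with 1.53 CPM, beside 0 to 0.244 CPM. In g4957 of family 31, mated replicate 9 was the highest mated pool with 0.561 CPM, beside 0.283 to 0.319 CPM.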

How the results depend on the processing

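Direction was the same under all 16 alternatives in 76 of 81 members. Of the 60 members called higher, 44 were called under every alternative (22 of family 13, 12 of family 1 and 10 of family 31), and 16 lost the call under at least 1. These counts are not given over all genes tested, so whether the members are more or less stable than other genes cannot be said. The count of family 13 genes called higher was 28 with limma voom, 46 with sample quality weights and 39 with DESeq2, and it ran from 24 to 40 when 1 library was left out, the lowest without mated replicate 11 and the highest without virgin replicate 2. The share of all genes called higher moved too. It was 24.7% with limma voom, 34.0% with sample quality weights and 29.0% with DESeq2. It was 19.5% without mated replicate 11 and 31.4% without virgin replicate 2. The count of family 13 genes called lower was 0 under limma voom, both with and without quality weights. Restricted to members above 1 CPM in 3 libraries of each group, family 13 had 19 higher and 0 lower and family 1 had 6 higher, because fewer genes enter. Among the 28 genes named by rule, the sign turned in 2 that were not called, g27231 (0.032 without virgin replicate 2, and -0.23 to 0.032 over the libraries left out) and g11092 (-0.0061 without virgin replicate 6, and -0.0061 to 0.34 over the libraries left out). The cause was not tested. DESeq2 gave no adjusted p for 1 member, g23515. Across the scalings the median log2 fold change of all genes ran from -0.05 to 0.05. With upper-quartile factors 23.9% of all genes were called higher and 25.2% lower, against 26.4% and 21.3% with TMM. No paired analysis was possible because the labels give the groups no replicate number in common. With 4 pools a group and wide spreads in family 13, a call missed is not evidence of equal levels.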

Other observations

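Among peptidase families that work in insect guts and elsewhere, papain-like cysteine peptidases had 18 of 27 genes called higher in virgin females and 2 lower, with a median log2 fold change of 2.04. Their summed level was 2605, 3759, 4943 and 3924 CPM in the virgin pools, against 3183.9, 2644, 2819 and 2656 CPM in the mated pools, so the sums overlapped although most genes were called higher. Trypsin-like serine peptidases had 22 of 94 genes (23.4%) higher and 20 (21.3%) lower, with a median of 0.00. Over all genes tested 26.4% were called higher and 21.3% lower, which is near the shares of the trypsin-like genes. Over both families the smallest p among genes called higher was that of g676, with a log2 fold change of 3.87 (SE 0.52), and among genes called lower that of g18876, with -6.74 (SE 0.53). Over both peptidase families 40 of 121 genes (33.1%) were called higher, and 22 without mated replicate 11, a fit in which 19.5% of all genes were.

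Aquaporins, which are water channels, had 4 of 10 genes called higher and 3 lower, beside 26.4% and 21.3% of all genes tested. Among them g24043 had a log2 fold change of 1.37 (SE 0.30) and g570 of -2.75 (SE 0.35). Without mated replicate 10 or 11, or without virgin replicate 3, 5 or 6, 2 aquaporins were called higher, beside 19.5% to 22.1% of all genes in these fits. Of 4 genes with yolk or lipoprotein domains, 0 were called higher and 1 lower, g36282, with a log2 fold change of -0.96 (SE 0.18).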
